A study of Mus musculus with 12 samples.

Results

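The genes described here are 9 genes of interferon signalling, chosen by symbol from the deposited count table: Ifnar1, Ifnar2, Ifngr1, Ifngr2, Jak1, Jak2, Tyk2, Stat2 and Stat3. They are 9 of the 32285 genes in the table, each symbol stands on 1 gene identifier, and 9 of 9 passed the filter on low counts. The cells were cultured macrophages, differentiated outside the animal from the bone marrow of mice with a wild-type genotype. Their poly(A) RNA was sequenced in 12 libraries, with 3 biological replicates in each of 4 groups. Cells had received itaconic acid (IA), methylsuccinic acid (MetSA) or malonic acid (MA), each added to 5 mM for 16 h from a stock of 50 mM, or medium alone (M). All groups share the wild-type genotype and the culture, and the sources used here name no further stimulus before the RNA was taken. The sources used here do not say whether the replicates of a group came from separate animals, so p-values measure the spread between these cultures. Itaconic acid is a dicarboxylic acid made by activated macrophages. Methylsuccinic acid has its carbon skeleton without the double bond, and malonic acid is a shorter dicarboxylic acid known as an inhibitor of succinate dehydrogenase.

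Type I interferons bind a receptor of the chains Ifnar1 and Ifnar2, and interferon gamma binds a receptor of Ifngr1 and Ifngr2. The chains have no kinase activity of their own: Tyk2 sits on Ifnar1, Jak1 on Ifnar2 and Ifngr1, and Jak2 on Ifngr2. Activated JAKs phosphorylate STAT proteins, which enter the nucleus; Stat2 acts with Irf9 in the complex ISGF3, which binds the interferon-stimulated response element (ISRE), whereas STAT dimers bind the gamma-activated site (GAS). Stat3 is best known as the factor downstream of IL-6 and IL-10, which also signal through these kinases. In macrophages this pathway sets the antiviral and the activated state.

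The promoters below show where the searched letters lie in the members that hold them, and in Jak2, which rose most after Stat2. On GRCm38, in GENCODE M21, Ifnar1 lies at chr16:91485238-91507441, Ifnar2 at chr16:91372783-91405589, Ifngr1 at chr10:19591949-19610229, Ifngr2 at chr16:91547072-91565623 and Jak1 at chr4:101152367-101265282. Jak2 lies at chr19:29251828-29313080, Tyk2 at chr9:21104068-21131243, Stat2 at chr10:128270559-128292849 and Stat3 at chr11:100885098-100939540; all are protein-coding. The windows are RefSeq promoters on GRCm38.p6, from 250 bases before to 50 after the annotated start, printed 5′ to 3′ along the gene, with the matches in capitals. All 9 members had a window. A shorter ISRE was searched as GAAANNGAA and the GAS as TTCNNNGAA, both strands each. The full ISRE extends the shorter form by a last A, so every match of it holds one of the shorter form. Of 32851 promoters in the table, 3.44% held the ISRE, 8.56% the shorter form and 8.3% the GAS. Stat2 (chr10:128270248-128270547, plus strand) held the ISRE on the opposite strand, its first base at −222 from the start. Ifnar1 (chr16:91484965-91485264, plus strand) held a GAS with its first base at −5, and Ifnar2 (chr16:91372533-91372832, plus strand) held one at −214. Jak2 (chr19:29251553-29251852, plus strand) and the other 5 members held none of these letters in the window.
Stat2: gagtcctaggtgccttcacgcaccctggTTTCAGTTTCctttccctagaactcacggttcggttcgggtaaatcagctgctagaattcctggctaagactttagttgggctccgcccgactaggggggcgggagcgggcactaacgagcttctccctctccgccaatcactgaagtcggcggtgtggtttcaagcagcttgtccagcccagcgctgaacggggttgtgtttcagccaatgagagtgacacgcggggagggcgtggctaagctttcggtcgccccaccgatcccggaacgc
Ifnar1: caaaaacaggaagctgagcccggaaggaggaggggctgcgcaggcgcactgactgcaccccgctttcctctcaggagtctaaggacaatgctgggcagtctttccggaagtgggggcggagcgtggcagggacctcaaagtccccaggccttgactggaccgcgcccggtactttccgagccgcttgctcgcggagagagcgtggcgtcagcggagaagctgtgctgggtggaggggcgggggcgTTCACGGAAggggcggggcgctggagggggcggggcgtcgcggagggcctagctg
Ifnar2: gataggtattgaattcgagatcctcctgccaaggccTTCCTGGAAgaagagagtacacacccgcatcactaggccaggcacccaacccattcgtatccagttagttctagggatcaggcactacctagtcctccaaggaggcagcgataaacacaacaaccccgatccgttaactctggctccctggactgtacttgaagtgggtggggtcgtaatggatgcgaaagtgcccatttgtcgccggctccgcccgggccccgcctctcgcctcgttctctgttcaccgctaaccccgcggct
Jak2: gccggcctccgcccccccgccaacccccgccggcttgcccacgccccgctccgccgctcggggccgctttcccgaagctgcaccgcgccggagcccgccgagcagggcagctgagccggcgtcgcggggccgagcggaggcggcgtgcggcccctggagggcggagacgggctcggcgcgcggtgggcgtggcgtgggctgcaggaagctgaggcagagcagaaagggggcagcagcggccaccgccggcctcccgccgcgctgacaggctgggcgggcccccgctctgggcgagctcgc

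Library totals ran from 46892488 to 54252486 counts. The cells carried macrophage markers in every library, with 10 markers (among them Csf1r, Adgre1 and Lyz2) summing to 25170 to 33860 CPM, the counts of a library scaled to a common total. The lymphocyte marker Ncr1 was at 0 in all libraries. The 9 lymphocyte markers summed to 21.8 to 30.9 CPM in IA, 21.4 to 27.9 CPM in MetSA, 10.31 to 11.03 CPM in MA and 12.7 to 15.1 CPM in M, most of it Cd4, which rose by a log2 fold change of 0.94 in IA and 0.85 in MetSA and fell by 0.38 in MA against M (adjusted p = 0.0366, edgeR). The 6 dendritic cell markers summed to 7.22 to 9.30 CPM in IA, 3.68 to 5.60 CPM in MetSA, 2.85 to 3.65 CPM in MA and 1.98 to 3.42 CPM in M; none was at 0 in all libraries. Xcr1, a dendritic cell receptor, rose by 4.42 in IA, 3.12 in MetSA and 0.97 in MA on the log2 scale. It averaged 4.86 CPM in IA, 1.97 CPM in MetSA, 0.44 CPM in MA and 0.22 CPM in M. Siglech was called higher in IA (1.02) and MA (1.39). Flt3, Zbtb46, Ccr7 and Clec9a were called in no acid against M. Fcgr1, on the macrophage list, rose by 2.51 in IA and 1.91 in MetSA. Sums of the neutrophil, fibroblast and erythroid lists overlapped between each acid and M, as did the mast cell sums of IA and MetSA. In MA the mast cell sum was 0.228 to 0.689 CPM, below the 0.705 to 0.764 CPM of M. That sum rests on few reads, with 2 to 22 counts per library for Cpa3 and 8 to 44 for Kit. Neither gene was called in MA, and the other mast cell markers were not tested. The macrophage sum was 29160 to 31240 CPM in MA, above the 25170 to 27480 CPM of M. The part of these cell types in the results below was not tested. In bulk RNA, fewer cells of a type and less RNA per cell cannot be told apart. MetSA replicate 3 stood nearer to M than the other MetSA libraries for Stat2, Stat3, Jak2, Tyk2 and Ifngr1. For Ifnar1, Ifnar2, Ifngr2 and Jak1 that library stood farthest of them from the M mean. Member calls that changed without it are given.

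Levels in this text are CPM after scaling by the trimmed mean of M-values (TMM), with SDs of 3 libraries. Comparisons used the quasi-likelihood test of edgeR, and p-values were adjusted by Benjamini-Hochberg over 14113 genes, and a gene was called at an adjusted p under 0.05. Log2 fold changes have the first-named group on top. The 3 comparisons with M share the M libraries. Sample titles number the libraries of each group WT1, WT2 and WT3. The main fit left these numbers out, and a repeat with them in the model is called the replicate block here. Member calls that it changed are given.

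**Figure D1:**
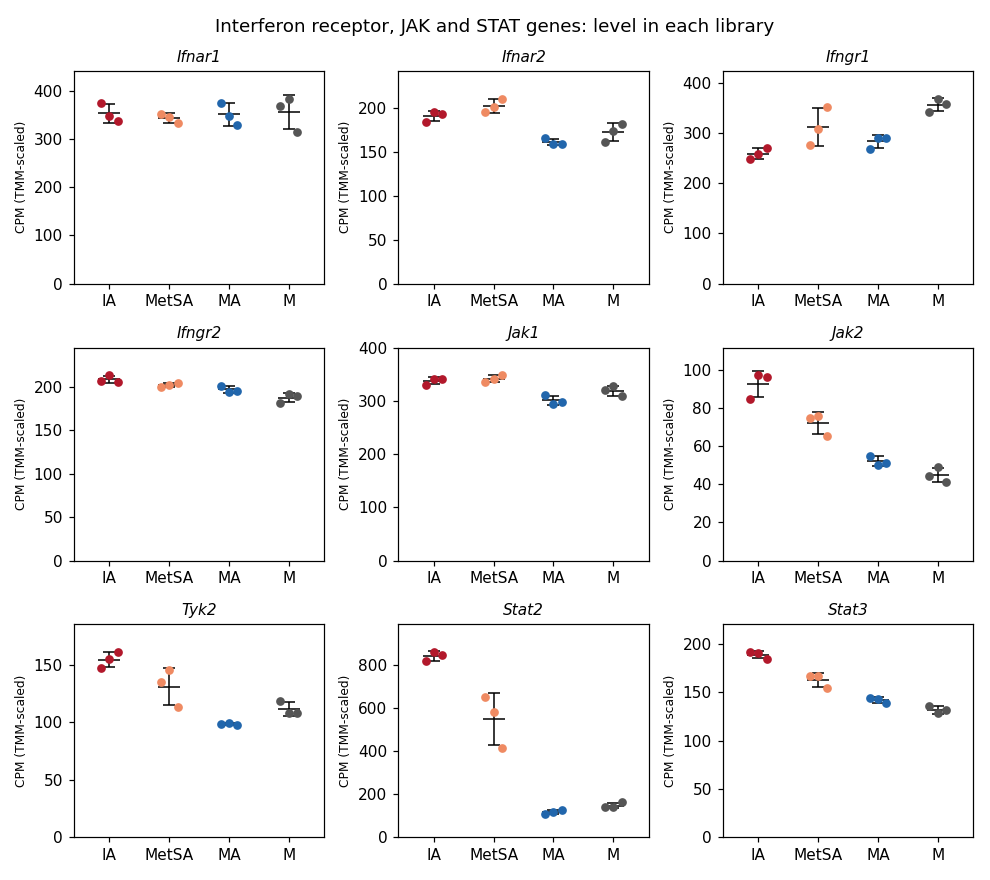
Level of each member in each library, in TMM-scaled CPM on a linear axis from 0, with the mean (long tick) and SD (bars) of 3 libraries per group. Stat2 lies between 816.3 and 858.6 CPM in IA and between 139.6 and 162.3 CPM in M, whereas Ifnar1 overlaps between all groups.

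With itaconic acid, 5 of the 9 members rose against medium and 1 fell, where 35.2% of all tested genes were called, 17.9% higher and 17.3% lower. Those that rose were Stat2, Jak2, Stat3, Tyk2 and Ifngr2, and the one that fell was Ifngr1. With methylsuccinic acid, 5 members rose and 0 fell, where 21.2% of genes were called, 12.6% higher and 8.53% lower. These were Stat2, Jak2, Stat3, Tyk2 and Ifnar2. With malonic acid 0 rose and 1 fell, Ifngr1, where 20.3% of genes were called, 10.1% higher and 10.1% lower. The median log2 fold change of the members was 0.15 for IA, 0.23 for MetSA and −0.09 for MA against M, beside −0.03, −0.01 and −0.02 over all genes in the same order of groups.

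**Figure D2:**
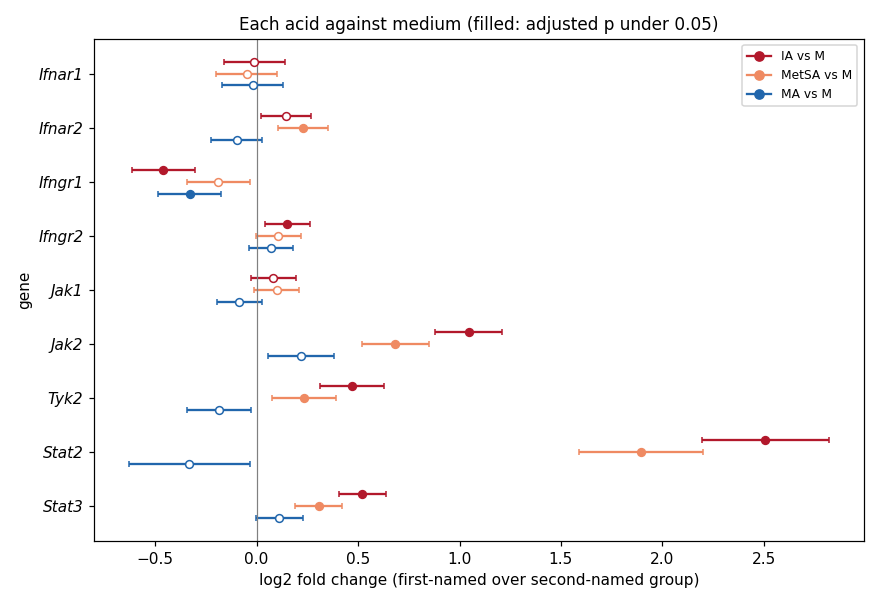
Log2 fold change of each member for each acid against medium, with 95% intervals from the edgeR fit, not adjusted for multiple tests; filled points have an adjusted p under 0.05. The Stat2 points lie at 2.51 for IA, 1.89 for MetSA and −0.33 for MA.

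Of the receptor chains, Ifngr1 had the largest fold changes against M in IA and MA. Ifnar1, the chain that carries Tyk2, had 374.6, 346.6 and 336.5 CPM in IA, 352.1, 345.7 and 332.5 CPM in MetSA, 375.2, 348.2 and 328.9 CPM in MA and 368.1, 383.4 and 315.0 CPM in M. Its ranges overlapped between every pair of groups, and no comparison called it; its log2 fold change for IA against M was −0.01 with a 95% interval of −0.16 to 0.14. Scaling by library totals without TMM called it lower in IA than in M (adjusted p = 0.0223, edgeR).

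Ifnar2, which carries Jak1, had 183.8, 195.3 and 193.3 CPM in IA, 194.8, 201.2 and 210.6 CPM in MetSA, 165.2, 159.0 and 159.1 CPM in MA and 161.6, 174.2 and 181.9 CPM in M. All IA and MetSA libraries lay above all M and MA libraries. Against M it rose in MetSA, with a log2 fold change of 0.23 and an SE of 0.06 (edgeR adjusted p = 0.00839). In IA the value was 0.14 ± 0.06 (adjusted p = 0.0644); errors of log2 fold changes are SEs here and below. In IA it was called higher with DESeq2, with DESeq2 size factors in edgeR and with a mean of at least 1 CPM. It was also called with the replicate block and without MetSA replicate 3 or M replicate 3. Over all these repeats its adjusted p ran from 0.0302 to 0.0464 (edgeR or DESeq2). With library totals its IA value became −0.05. The MetSA call was lost with library totals, with upper-quartile scaling and without M replicate 1 (adjusted p from 0.0553 to 0.168, edgeR). Ifnar2 shares 315 exon bases and 6.31% of its 100-base stretches with Gm21970, a read-through transcript on the same strand. Gm21970 has 0 rows in the table, and the counting annotation is not given. How reads on the shared bases were counted was not tested.

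Ifngr1, the ligand-binding chain of the interferon gamma receptor, had 249.0, 257.7 and 269.7 CPM in IA, 276.4, 308.1 and 352.4 CPM in MetSA, 268.4, 289.8 and 290.7 CPM in MA and 342.0, 368.4 and 357.3 CPM in M. All IA and MA libraries lay below all M libraries, and MetSA replicate 3 lay within the M range. It fell by 0.46 ± 0.07 on the log2 scale in IA (adjusted p = 5.95e-05) and by 0.33 ± 0.07 in MA (adjusted p = 0.00266, edgeR). In MetSA the value was −0.19 ± 0.07 and was not called (adjusted p = 0.0758). Without MetSA replicate 3 it was −0.28 and was called (adjusted p = 0.00322, edgeR). It was also called with upper-quartile scaling, with library totals and with the replicate block.

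Ifngr2, the chain that carries Jak2, had 206.5, 213.5 and 206.4 CPM in IA, 199.8, 202.1 and 205.0 CPM in MetSA, 201.6, 194.8 and 195.3 CPM in MA and 181.5, 192.0 and 190.1 CPM in M. Every acid-treated library lay above every M library, by a small margin. Only the IA comparison was called (log2 fold change 0.15 ± 0.05, adjusted p = 0.0294, edgeR), and its value became −0.04 with library totals. That call was also lost with upper-quartile scaling, without a filter on low counts, and without IA replicate 1, IA replicate 2 or M replicate 1.

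The kinases differed among themselves. Jak1, the kinase that both receptors share, averaged 338.3 ± 6.75 CPM in IA, 342.3 ± 6.53 CPM in MetSA, 301.6 ± 8.80 CPM in MA and 319.9 ± 9.16 CPM in M. It was called against M in none of the 3 acids (log2 fold change 0.08 for IA, 0.10 for MetSA and −0.09 for MA; adjusted p = 0.255, 0.214 and 0.303 in that order, edgeR). With library totals the IA and MetSA values became −0.11 and −0.02. Jak1 overlaps 4 exon bases of Raver2 on the opposite strand.

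Jak2 had 84.4, 97.0 and 96.1 CPM in IA, 74.7, 75.8 and 65.5 CPM in MetSA, 55.0, 50.2 and 51.2 CPM in MA and 44.5, 48.9 and 41.1 CPM in M. The 4 groups did not overlap, with IA at the top and M at the bottom. Jak2 rose 2.06-fold in IA (log2 fold change 1.05 ± 0.08, adjusted p = 3.96e-09) and by a log2 fold change of 0.68 ± 0.08 in MetSA (adjusted p = 2.37e-06, edgeR). In MA the value was 0.22 and missed the call (adjusted p = 0.0571, edgeR). It was called without M replicate 2 or MetSA replicate 3, without a filter on low counts and with a mean of at least 1 CPM. The fit of MA and M alone and the replicate block also called it.

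Tyk2 had 147.3, 155.2 and 160.9 CPM in IA, 134.7, 145.3 and 113.3 CPM in MetSA, 98.4, 99.1 and 97.4 CPM in MA and 118.7, 108.5 and 107.7 CPM in M. All IA libraries lay above and all MA libraries below those of M, and MetSA overlapped M through its replicate 3. Tyk2 rose in IA (log2 fold change 0.47 ± 0.08, adjusted p = 6.5e-05) and in MetSA (0.23 ± 0.08, adjusted p = 0.034, edgeR). The MetSA call was lost with upper-quartile scaling, with library totals, in a fit of the 2 groups alone, without MetSA replicate 1 or 2 and without M replicate 2 or 3. The MA value of −0.18 was not called (adjusted p = 0.0983), but was without MetSA replicate 3 and with library totals (edgeR). Tyk2 overlaps 1700084C06Rik on the opposite strand over 554 exon bases; that gene had 157 to 297 counts per library, and with no statement on strand its reads cannot be told from those of Tyk2.

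Stat2, the STAT of the type I and III interferon receptors, had the largest fold changes among the 9 members in IA and MetSA against M. It had 816.3, 858.6 and 847.7 CPM in IA, 649.8, 582.3 and 415.5 CPM in MetSA, 107.8, 119.2 and 125.3 CPM in MA and 141.4, 139.6 and 162.3 CPM in M. All IA and MetSA libraries lay far above M, with MetSA replicate 3 the lowest of them, and all MA libraries lay below M. Stat2 rose 5.69-fold in IA (log2 fold change 2.51 ± 0.14, adjusted p = 8.03e-08) and 3.72-fold in MetSA (1.89 ± 0.14, adjusted p = 1.62e-06, edgeR). In MA the value of −0.33 was not called (adjusted p = 0.116); DESeq2 called it, as did edgeR without a filter on low counts, in the fit of MA and M alone, and without MetSA replicate 1 or 3.

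Stat3 had 191.3, 190.7 and 184.6 CPM in IA, 167.0, 166.6 and 154.6 CPM in MetSA, 144.5, 143.4 and 138.8 CPM in MA and 135.4, 128.0 and 131.5 CPM in M. The 4 groups did not overlap, in the same order as for Jak2. It rose in IA (log2 fold change 0.52 ± 0.06, adjusted p = 4.21e-07) and in MetSA (0.31 ± 0.06, adjusted p = 0.000389, edgeR), and the MA value of 0.11 was not called (adjusted p = 0.18). Stat3 shares 72 exon bases with Stat5a on the opposite strand.

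The acids were then set against each other at the same dose and time, in 3 pairs. IA and MetSA differ by the double bond. In that pair 3 members were higher in IA and 1 was lower, where 6.12% of all genes were called, 3.97% higher and 2.15% lower. Stat2 was higher in IA than in MetSA by a log2 fold change of 0.61 ± 0.13 (adjusted p = 0.0222), Jak2 by 0.36 ± 0.08 (adjusted p = 0.00866) and Stat3 by 0.21 ± 0.06 (adjusted p = 0.026, edgeR). Ifngr1 was lower (−0.27 ± 0.07, adjusted p = 0.0332, edgeR). Only the Jak2 call held in every repeat that left out a library. The Stat2 and Ifngr1 calls were lost without any 1 of the IA libraries. The Stat2 call was also lost with the replicate block, and the Ifngr1 call without MetSA replicate 2. The Stat3 call was lost without IA replicate 1 or 2 and with library totals. A fit of IA and MetSA alone called Jak2 and none of the other 3. Without MetSA replicate 3 Ifngr1 was −0.18 (adjusted p = 0.158) and Stat3 0.18 (adjusted p = 0.0948, edgeR).

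For the other 5 members the IA to MetSA difference was not called, and the 95% intervals of the difference, not adjusted for multiple tests, are given. They ran from −0.11 to 0.19 for Ifnar1, from −0.21 to 0.04 for Ifnar2, from −0.06 to 0.15 for Ifngr2, from −0.13 to 0.09 for Jak1 and from 0.08 to 0.39 for Tyk2, on the log2 scale (Tyk2 adjusted p = 0.0691, edgeR). Tyk2 was called higher in IA without a filter on low counts, with a mean of at least 1 CPM and with DESeq2. The replicate block called it too, as did the repeat without MetSA replicate 2. Over all these repeats its adjusted p ran from 0.0229 to 0.0496 (edgeR or DESeq2).

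Against malonic acid, 6 members were higher in IA and 0 were lower, where 34.6% of genes were called, 17.8% higher and 16.8% lower. The same count held for MetSA against MA, where 26.4% of genes were called, 14.7% higher and 11.6% lower. In both pairs the 6 were Ifnar2, Jak1, Jak2, Tyk2, Stat2 and Stat3. The Ifnar2 call in IA was lost with library totals (log2 fold change 0.09, adjusted p = 0.225, edgeR). Ifngr1 was called lower in IA than in MA with both other scalings, and higher in MetSA than in MA without MetSA replicate 1. Stat2 was 7.16-fold higher in IA and 4.68-fold higher in MetSA than in MA (adjusted p = 2.14e-08 and 2.08e-07, edgeR). Jak2 differed by a log2 fold change of 0.83 for IA and 0.47 for MetSA over MA, and Tyk2 by 0.65 for IA and 0.42 for MetSA. The Jak1 differences were small, 0.17 for IA and 0.18 for MetSA over MA, and were lost with upper-quartile scaling, with library totals, without a filter on low counts, and without MA replicate 2 or 3; the IA call was also lost without IA replicate 2 or 3. Stat3 differed by 0.41 for IA and 0.19 for MetSA over MA, and the MetSA call was lost with both scalings and without MA replicate 3, MetSA replicate 1 or MetSA replicate 2.

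**Figure D3:**
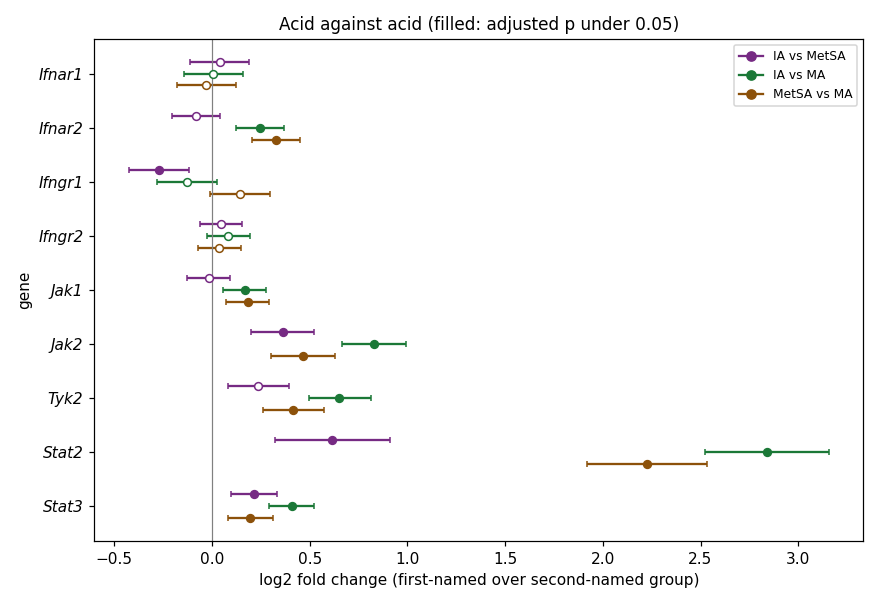
Log2 fold change of each member between acids, with 95% intervals from the edgeR fit, not adjusted for multiple tests; filled points have an adjusted p under 0.05. Stat2 lies at 0.61 for IA over MetSA, 2.84 for IA over MA and 2.23 for MetSA over MA.

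Ratios of counts within a library do not depend on how libraries are scaled, and 4 were compared over the 4 groups by an exact permutation test, two-sided in effect through its F statistic, over 369600 arrangements. The ratio of Jak2 to Jak1 counts averaged 0.273 ± 0.0155 in IA, 0.211 ± 0.0197 in MetSA, 0.173 ± 0.00341 in MA and 0.140 ± 0.00829 in M. It differed between groups (exact permutation p = 6.49e-05, the smallest this test can give; adjusted over 4 ratios 0.00026). The ratio of Ifngr1 to Ifngr2 was 1.24 ± 0.0581 in IA, 1.54 ± 0.168 in MetSA, 1.44 ± 0.0908 in MA and 1.89 ± 0.0213 in M (exact permutation, adjusted p = 0.00117), and every acid-treated library had a lower ratio than every M library.

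The Tyk2 to Jak1 ratio was 0.456 ± 0.0124 in IA, 0.383 ± 0.0521 in MetSA, 0.326 ± 0.00996 in MA and 0.349 ± 0.0195 in M (exact permutation, adjusted p = 0.0119). The Ifnar1 to Ifnar2 ratio was 1.85 ± 0.163 in IA, 1.70 ± 0.115 in MetSA, 2.18 ± 0.102 in MA and 2.07 ± 0.296 in M, and missed the threshold (exact permutation, adjusted p = 0.0592). By exact permutation it passed once M replicate 3 was left out (adjusted p = 0.0129), and likewise for IA replicate 1 (0.0471). Single pairs of groups were not tested, since 3 libraries against 3 cannot reach the threshold.

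**Figure D4:**
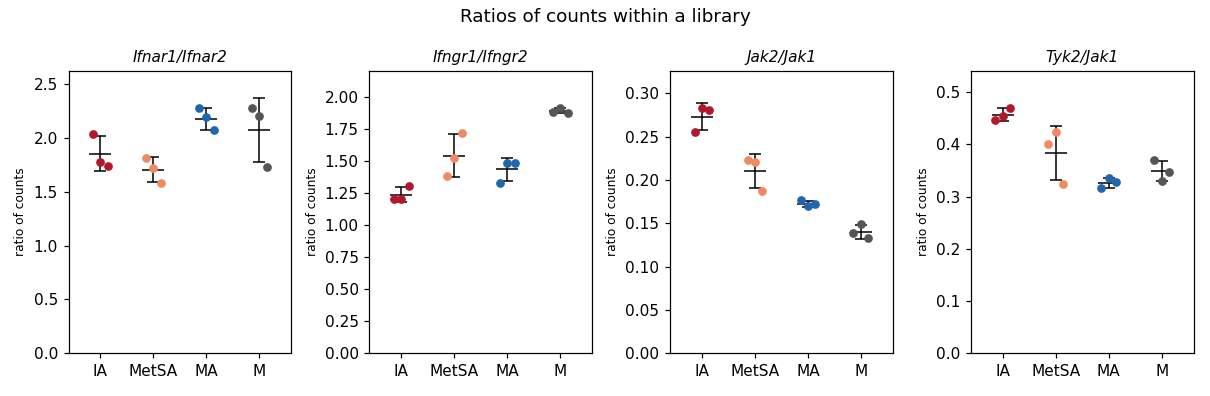
Ratio of the counts of 2 genes in each library, for 4 gene pairs, on linear axes from 0, with the mean (long tick) and SD (bars) of 3 libraries. The Jak2 to Jak1 ratio lies at 0.255 to 0.284 in IA and 0.133 to 0.149 in M.

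Levels of different genes were compared per length, as TPM, the counts per kilobase of annotated exon scaled to a common total. In IA Stat2 came first at 499.4 ± 9.19 TPM, above Ifngr1 at 319.9 ± 9.03 TPM. In MetSA Ifngr1 at 397.0 ± 49.3 TPM and Stat2 at 335.4 ± 73.4 TPM overlapped. In MA Stat2 stood sixth at 76.0 ± 5.62 TPM. In M the order of mean TPM was Ifngr1 (500.0), Ifnar1 (239.7), Ifnar2 (207.3), Ifngr2 (199.5), Jak1 (177.2), Stat2 (99.7), Tyk2 (65.1), Stat3 (55.3) and Jak2 (35.7). Of neighbours in that order, Ifnar1 and Ifnar2 overlapped, as did Ifnar2 and Ifngr2. The 4 receptor chains lay above Tyk2, Stat3 and Jak2 in every group.

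**Figure D5:**
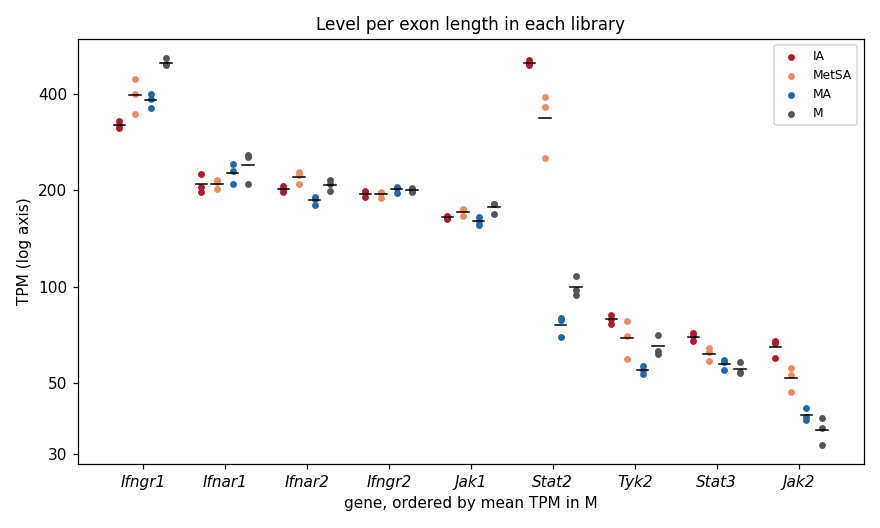
TPM of each member in each library on a log axis, genes ordered by their mean in M; points are libraries and ticks are group means. Stat2 lies at 499.4 TPM in IA, above the other 8 members there, and at 99.7 TPM in M.

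Ifnar2, Il10rb, Ifnar1 and Ifngr2 lie side by side on chromosome 16 within 192.8 kb (chr16:91372783-91565623, GENCODE M21 on GRCm38). Il10rb, the second chain of the IL-10 receptor, rose in IA (log2 fold change 0.27, adjusted p = 0.00386) and was not called in MetSA (0.13) or MA (−0.09). Past the cluster, Gart, a purine synthesis enzyme, fell by 0.54 in IA and by 0.38 in MetSA on the log2 scale (adjusted p = 1.2e-05 and 0.000978, edgeR). Tmem50b and Dnajc28 rose in MA (0.44 and 0.58), and Dnajc28 fell by 0.35 in IA. Son rose in IA (0.15, adjusted p = 0.0274, edgeR), and Donson was called in none. With library totals 0 of the tested neighbours were called higher in IA. Son and Donson overlap on opposite strands. Olig1 and Olig2 had no counts.

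The interferon ligands gave almost no reads. Of 21 ligand genes 0 passed the filter and 14 were at 0 in all 12 libraries. Ifnb1 had 4, 8 and 4 counts in IA, 2, 8 and 10 in MetSA, 0 in each MA library and 0, 2 and 0 in M. No other ligand gene exceeded 5 counts in a library. If counts are independent, a count of 0 at this depth allows up to 3 counts in a library, by counting error alone. Where both mates of a pair were counted, the allowance is wider.

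The other STATs, Jak3 and Irf9 made a list of 7 genes. Against M, 3 rose and 1 fell in IA, 3 rose and 1 fell in MetSA, and 0 rose and 4 fell in MA. Over all tested genes, 17.9% were called higher and 17.3% lower in IA, and 12.6% and 8.53% in MetSA. In MA the shares were 10.1% each. The list's median log2 fold change was 0.08 for IA, 0.10 for MetSA and −0.21 for MA. Irf9, the DNA-binding partner of Stat2, averaged 132.6 ± 1.62 CPM in IA, 127.3 ± 5.62 CPM in MetSA, 87.5 ± 2.51 CPM in MA and 94.8 ± 5.16 CPM in M. It rose in IA (log2 fold change 0.48, adjusted p = 2.4e-06) and MetSA (0.43, adjusted p = 2.24e-05, edgeR). Stat4, known from IL-12 signalling, rose in IA (0.73) and MetSA (1.20). Jak3, which serves the common gamma chain, fell by 0.52 in MA (adjusted p = 0.000547), where Stat5b fell by 0.25 (edgeR). Stat5a fell by 0.24 in IA, 0.24 in MetSA and 0.32 in MA.

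Of 27 other receptor chains that use JAKs, 21 were tested. Against M, 14 rose and 3 fell in IA, 11 rose and 3 fell in MetSA, and 7 rose and 6 fell in MA. The medians were 0.39, 0.28 and 0.02 in that order. Called shares over all tested genes were 35.2% in IA, 21.2% in MetSA and 20.3% in MA. With library totals the IA count was 10 higher and 4 lower. Il21r, a chain of the IL-21 receptor, rose in all 3 acids, to 76.1 ± 4.35 CPM in IA, 65.3 ± 0.968 CPM in MetSA and 51.2 ± 1.78 CPM in MA, against 28.8 ± 0.390 CPM in M. Il7r rose by a log2 fold change of 0.98 in IA, 0.49 in MetSA and 0.60 in MA, and Csf3r, the G-CSF receptor, by 0.76 in IA, 0.72 in MetSA and 0.84 in MA. Il13ra1 rose by 1.11 in IA, 1.06 in MetSA and 0.73 in MA. Il2rg, the common gamma chain, rose in IA (0.73, adjusted p = 2.02e-08) and MetSA (0.42) and fell in MA (−0.31, adjusted p = 0.00119, edgeR). Csf2rb and Csf2rb2 are known to be near-identical, so their counts are uncertain. How reads were split between them was not tested.

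The list of JAK-STAT inhibitors held 19 tested genes. Against M, 12 rose and 0 fell in IA, 8 rose and 0 fell in MetSA, and 4 rose and 1 fell in MA. The medians were 0.32, 0.21 and 0.02 in that order. Among all tested genes 35.2% were called in IA, 21.2% in MetSA and 20.3% in MA, and the MA count is near that share. With library totals the counts became 6 higher and 4 lower in IA and 6 higher and 1 lower in MetSA, and with upper-quartile scaling 8 higher and 0 lower in IA. Usp18, which blocks signalling at Ifnar2, averaged 130.4 ± 8.96 CPM in IA, 75.2 ± 14.1 CPM in MetSA, 12.2 ± 2.21 CPM in MA and 16.5 ± 4.06 CPM in M. It rose by a log2 fold change of 2.98 in IA and 2.19 in MetSA (adjusted p = 2.23e-06 and 3.59e-05, edgeR). Socs1, which binds JAKs directly, rose in IA (2.00, adjusted p = 4.59e-06) and MetSA (1.42, adjusted p = 0.000414, edgeR). Socs3 rose in IA (0.52, adjusted p = 0.0325), MetSA (1.21, adjusted p = 5e-05) and MA (0.73, adjusted p = 0.00653, edgeR). Both stood at low levels under 6 CPM. Ptprc, the phosphatase CD45, rose in IA (0.55) and MetSA (0.28), as did Socs7 (0.56 in IA and 0.25 in MetSA). Socs6 rose by 0.31 in IA, and in MA it rose to 140.2 ± 11.2 CPM against 63.9 ± 2.35 CPM in M (log2 fold change 1.13, adjusted p = 2.48e-10, edgeR). Socs2 rose in IA (1.22), MetSA (1.08) and MA (1.81). Its level was low too, at 0.50 CPM in M and 1.07 to 1.78 CPM on average in the acids, with 17 to 101 counts per library. Ptpn6, the phosphatase SHP-1, rose in IA (0.37) and MetSA (0.30) and fell by 0.32 in MA.

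Among 5 genes of Ifnar1 turnover, Fbxw11, a subunit of the ubiquitin ligase that marks the receptor for degradation, rose in IA (log2 fold change 0.48), MetSA (0.33) and MA (0.20; adjusted p = 0.0156, edgeR). The other 4 were called in none of these comparisons, but with library totals 2 were called lower in IA and 1 in MetSA. Calling 1 gene of 5 does not exceed the shares over all tested genes (35.2% in IA, 21.2% in MetSA and 20.3% in MA).

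Of 20 genes induced through ISGF3, 20 were tested, and 20 rose in IA, 20 rose in MetSA and 11 fell in MA against M; the counts came out equal with upper-quartile scaling and with library totals. Without MetSA replicate 3 the fall in MA was called for 14. Of all tested genes, 17.9% were called higher in IA, 12.6% higher in MetSA and 10.1% lower in MA. The median log2 fold change was 3.17 in IA, 2.33 in MetSA and −0.48 in MA. Earlier results on these libraries already showed this response, and it adds no independent support to the rise of Stat2. Trim30a averaged 919.0 ± 20.1 CPM in IA, 678.3 ± 34.9 CPM in MetSA, 207.1 ± 13.4 CPM in MA and 245.1 ± 22.2 CPM in M. Ddx58, the RNA sensor RIG-I, rose by a log2 fold change of 2.25 in IA and 1.70 in MetSA and fell by 0.42 in MA (adjusted p = 0.00135, edgeR). Ifih1, the sensor MDA5, rose in IA (2.15) and MetSA (1.58). Oas2 rose in IA (1.31) and MetSA (0.98) and fell by 0.76 in MA, and Parp14 rose in IA (1.76) and MetSA (1.27) and fell by 0.37 in MA.

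Genes induced through Stat3 moved in both directions. Of 14 tested, 7 rose and 2 fell in IA, 8 rose and 1 fell in MetSA, and 4 rose and 4 fell in MA, with medians of 0.35, 0.34 and −0.08. Shares called over all tested genes were 35.2% in IA, 21.2% in MetSA and 20.3% in MA. With library totals the counts of this list were 6 higher and 4 lower in IA and 6 higher and 3 lower in MetSA. Hif1a rose in all 3 acids (log2 fold change 0.99 in IA, 0.87 in MetSA and 1.10 in MA). Mcl1, a survival factor, rose in IA (0.71) and MetSA (0.50). Il4ra rose in IA (0.57), MetSA (0.65) and MA (0.64). Myc fell by 1.36 in IA (adjusted p = 2.28e-09), 0.89 in MetSA and 0.69 in MA (edgeR). Ccnd1, cyclin D1, fell by 1.11 in MA (adjusted p = 2.27e-06, edgeR).

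Across the 12 libraries, the genes of most similar pattern were sought among 8136 tested genes with a mean of at least 10 CPM, by Pearson's r of log2 CPM. These libraries share 4 groups, so r largely follows the group means and is a description. Stat2 was nearest to Phf11b (r = 0.999), Tap1 (0.999) and Irf7 (0.998). Jak2 was nearest to Ankle2 (0.994), Tlr8 (0.988) and St6galnac4 (0.985), and Stat3 to Tmem184b (0.988), Wdfy1 (0.986) and Cd274 (0.984). For Tyk2 the nearest were Tcof1 (0.983), Gpatch2l (0.979) and Itpr1 (0.979), and for Jak1 Tbl1x (0.986), Dse (0.958) and Ptprj (0.947).

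The nearest genes to Ifnar2 were Clec4n (0.961), Eva1b (0.952) and Fcgr3 (0.944), and to Ifngr2 Erlec1 (0.981), P2ry12 (0.973) and Stx7 (0.953). Ifngr1 was nearest to Aldh9a1 (0.977), Pip4k2a (0.963) and Zfp395 (0.956), which shared its low level in IA. Ifnar1 had the least similar neighbours, Gsk3b (0.906), Dpp8 (0.878) and Xpnpep3 (0.864). Among the members, Jak2 and Stat3 were the most alike (r = 0.967 over 12 libraries), and Ifngr1 ran opposite to Stat3 (r = −0.754).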

How the data were processed

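The authors deposited 1 table of raw counts per gene, whole numbers with no scaling. The submitters' processing notes name the mm10 build, the aligner STAR and the counter featureCounts. Their versions, the annotation and the strand setting were not given in the sources used here. Of counts from 1 to 9, 66.1% were even, against 50.9% of counts of 1000 or more, so both mates of many pairs may be counted, and a repeat used halved counts. Replicates of a group all differed beyond counting noise (chi-square divided by its degrees of freedom, 9.60 to 59.7).

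Groups came from the sample titles. Genes were kept by filterByExpr, leaving 14113, scaled by TMM and fitted once with the 4 groups and no covariate, leaving 8 residual degrees of freedom (R 4.3.3, edgeR 4.0.16 quasi-likelihood test, limma 3.58.1; DESeq2 1.42.0 as an alternative). The script was tested on simulated data. Intervals cover the spread between libraries. Ratios of counts were tested by exact permutation. Coordinates and exon lengths are from GENCODE M21 on GRCm38, 1-based, and promoters from RefSeq.

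The members and lists were chosen with earlier results of these data known. All members are named, with up to 3 called genes of smallest adjusted p per list and comparison with M, each tested neighbour of the receptor cluster, and the 3 genes of most similar pattern per member. Some genes counted in the lists are not reported here by name. Alternatives were other scalings and filters, DESeq2, fits of single pairs, halved counts, the replicate block and leaving out each library.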

Additional observations from a re-analysis of the deposited data

How the results depend on the processing

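Over all alternatives, 1022 of the members' log2 fold changes kept their direction and side of the threshold, 49 lost a call, 32 gained one and 31 changed sign; the cause was not tested. The rises of Stat2, Jak2 and Stat3 in IA and MetSA against M were called under every alternative run. The same held for the rise of Tyk2 in IA and the falls of Ifngr1 in IA and MA. The sign changes were in members with small values. For Ifnar1, IA against M became 0.006 with DESeq2 size factors and with DESeq2, 0.007 with a mean of at least 1 CPM and 0.005 in the fit of the 2 groups alone, and IA against MA became −0.067 with upper-quartile scaling. Leaving out 1 library each gave Ifnar1 values of −0.092 to 0.052 for IA, −0.13 to 0.009 for MetSA and −0.099 to 0.039 for MA against M, −0.008 to 0.085 for IA against MetSA, −0.039 to 0.058 for IA against MA and −0.075 to 0.021 for MetSA against MA. With upper-quartile scaling Jak1 in IA against M became −0.007 and Ifngr2 in MetSA against MA −0.012; Jak1 in IA against MetSA became 0.000 with DESeq2 and with its size factors.

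Scaling by library totals moved the median of all genes to −0.22 for IA and −0.13 for MetSA against M and to −0.19 for IA against MA; upper-quartile scaling moved it to −0.12 for IA against M and −0.11 for IA against MA. The share of calls that were higher, 50.9% for IA and 59.7% for MetSA against M, became 34.8% and 42.2% with upper quartiles and 21.6% and 29.5% with totals. It was 64.8% for IA against MetSA (29.7% with totals), 51.5% for IA against MA (25.7%) and 55.9% for MetSA against MA (38.9%). With totals, IA against M gave −0.045 for Ifnar2, −0.037 for Ifngr2 and −0.11 for Jak1; MetSA against M gave −0.009 for Ifngr2 and −0.017 for Jak1. IA against MetSA gave −0.035 for Ifnar1 and −0.028 for Ifngr2, IA against MA −0.14 for Ifnar1 and −0.071 for Ifngr2, and MetSA against MA −0.043 for Ifngr2. Members called lower then numbered 2 in IA and 2 in MA against M, and 1 in IA against MA; with totals and with upper quartiles, 3 were higher and 1 lower in MetSA against M, and 1 lower in IA against MA.

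In MA against M, 1 member was called higher without a filter, with a mean of at least 1 CPM and in the fit of 2 groups, and 2 lower without a filter, with DESeq2 and in the fit of 2 groups; leaving out a library gave 0 to 1 higher and 1 to 3 lower. In MetSA against M leaving out a library gave 0 to 1 lower. IA against MetSA called 864 genes, but 1483 without a filter, 1297 with DESeq2, 575 in the fit of 2 groups (1 member higher and 0 lower) and 420 to 974 without 1 library, with 1 to 4 members higher and 0 to 1 lower. The adjusted p of the Ifnar1 to Ifnar2 ratio ran from 0.0129 to 0.158 by exact permutation. List counts were repeated without MetSA replicate 3 and with both scalings, chosen after seeing the data: 16 of 126 moved by over 1.5 times, 10 with totals, 5 with upper quartiles and 1 without MetSA replicate 3.

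The titles give each group libraries WT1, WT2 and WT3 and do not say what a shared number stands for. Same-numbered libraries of different groups correlated at 0.012 to 0.169 in their deviations from group means (median 0.0695). Differently numbered ones ran from −0.113 to 0.023 (median −0.032). Of 12 libraries, 12 correlated best with a library of their own number. The numbers may thus mark a pairing, which the labels do not state. With the replicate block, IA against MetSA called 1413 genes, Jak2 in MA and Ifnar2 in IA were called higher and Ifngr1 in MetSA lower against M, Tyk2 was called higher in IA than in MetSA (log2 fold change 0.24, adjusted p = 0.0313, edgeR), the Ifnar1 to Ifnar2 ratio had an adjusted p of 0.0156 by exact permutation, and Stat2 in IA against MetSA was not called (adjusted p = 0.0679, edgeR).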
